A study of Cavia porcellus with 10 samples.

Results

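The epidermal growth factor (EGF) family is a set of growth factors that are made as membrane proteins, cut free at the cell surface and bound by the 4 ERBB receptors of the same or neighbouring cells. The members described here were chosen by gene name: the ligands EGF, AREG, EREG, HBEGF, TGFA and BTC, and the receptors EGFR, ERBB2, ERBB3 and ERBB4. Of these 10 names, 9 matched a gene among the 25028 genes of the expression table, 5 of them ligands and 4 receptors. AREG was not analysed here. RNA was sequenced from the vaginal portion of the cervix of Hartley guinea pigs in 3 stages: 3 non-pregnant females in estrus (NP), 3 females at mid-pregnancy (MT, 43.6 ± 0.5 days of gestation, mean ± SD) and 4 in late pregnancy that were not in labor (LT, 65.2 ± 1.2 days). Gestational age was estimated after death from fetal size and weight, and the age of individual animals is not given in the labels. Each animal gave 1 library. The question is which ligand and receptor mRNAs differ between estrus, mid-pregnancy and the days before birth.

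Ligand binding brings ERBB receptors together in pairs and switches on the kinase part inside the cell, which signals through the RAS and MAP kinase cascade and through PI3 kinase. EGF, TGFA and AREG bind EGFR, while HBEGF, BTC and EREG bind both EGFR and ERBB4, and the neuregulins bind ERBB3, ERBB4 or both. ERBB2 has no known ligand of its own and acts as the preferred partner of the others, and ERBB3 has little kinase activity and signals through its partners. In epithelia such as the squamous and glandular linings of the cervix the family is known for its part in proliferation, differentiation and wound repair. Since whole tissue was sequenced, fewer cells of a type and less RNA per cell cannot be told apart.

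Between 18730665 and 27881572 reads were counted on genes per animal. Levels are given in TPM, the relative abundance of transcripts in a library after correction for transcript length, so that genes can be compared with each other. Differences between stages are given as log2 of TPM + 1, a scale on which changes of scarce transcripts look smaller than they are, with adjusted P-values from limma over the 13421 genes whose mean over the 10 animals was 1 TPM or more. The 3 comparisons share animals. Over all tested genes the median of the log2 fold changes was -0.14 for MT against NP, -0.16 for LT against MT and -0.28 for LT against NP, and values of single genes stand against this shift. Each difference was computed again in 20 alternative fits, of which 10 changed the scale, filter, normalization or model and 10 left out 1 animal each. NP replicate 1 stood apart from the other NP animals, with a summed level of squamous epithelial markers of 3559 TPM against 1215 and 1153 TPM and of smooth muscle markers of 23074 TPM against 9573 and 8157 TPM. Values without this animal are given where they matter.

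Of the 9 genes, 8 passed the filter on the mean level and EGF did not. From NP to MT, 4 of the 8 tested members had an adjusted P under 0.05, all 4 higher in MT: TGFA, BTC, ERBB2 and ERBB4. Over all tested genes 18% were called in this comparison, 6.07% as higher and 11.9% as lower. These 4 members showed no overlap between NP and MT animals, as did 34.4% of all genes. From MT to LT, 3 of 8 were called, all lower in LT and all receptors: EGFR, ERBB2 and ERBB3. Here 28.3% of all genes were called, 6.53% as higher and 21.8% as lower. From NP to LT, 4 of 8 were called, with TGFA, BTC and ERBB4 higher and ERBB3 lower in LT, where 51.9% of all genes were called, 10.8% as higher and 41.1% as lower. The same 4 did not overlap between NP and LT, as for 51.6% of all genes.

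**Figure D1:**
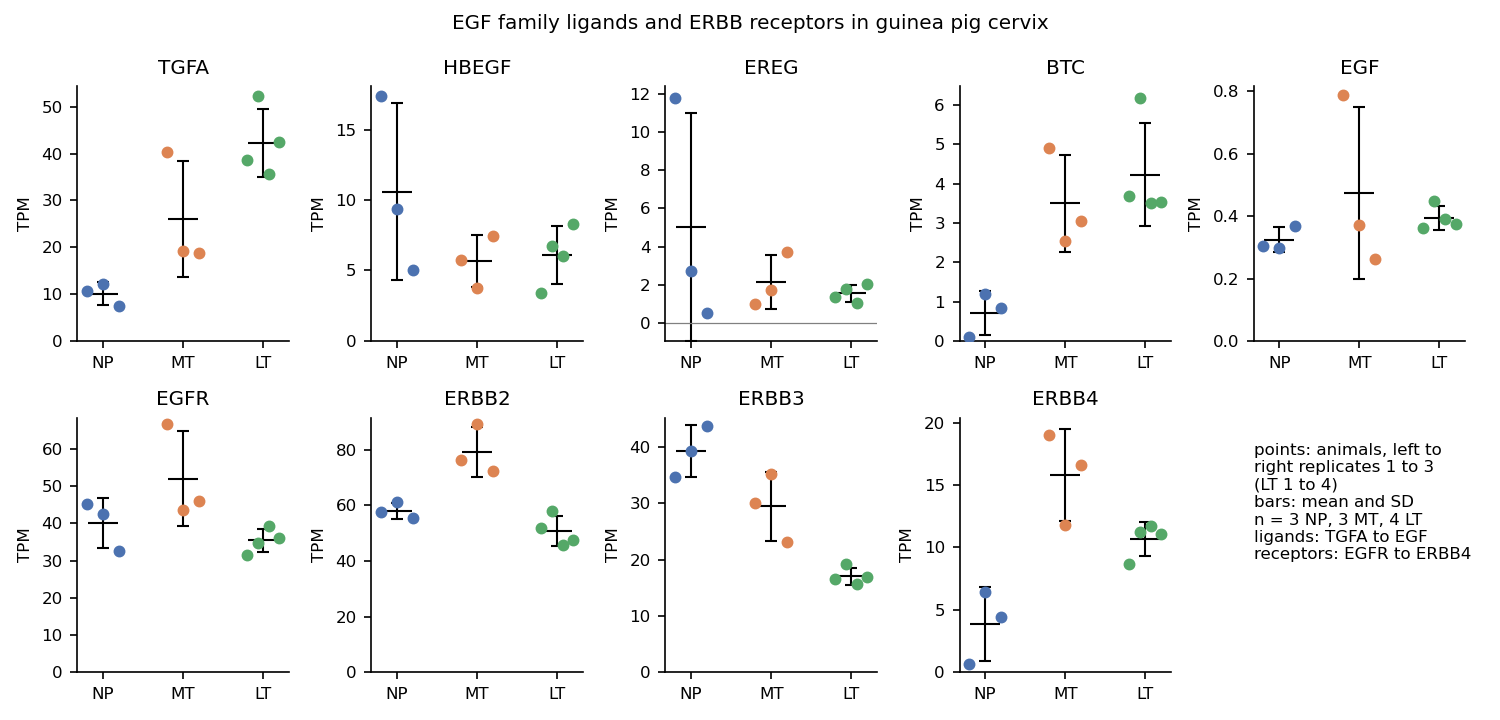
Level in TPM of the 5 ligands and 4 receptors with a row, by stage. Each point is 1 animal and the bars give mean and SD (n = 3 NP, 3 MT, 4 LT). The NP animals lie below all pregnant animals for TGFA, BTC and ERBB4, and the LT animals lie below all others for ERBB3. For EREG the lower SD bar of NP runs below 0 because 1 NP animal reached 11.8 TPM.

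TGFA (ENSCPOG00000009755), which encodes transforming growth factor alpha, was the most abundant ligand in MT and LT. Its level was 10.6, 12.2 and 7.51 TPM in the NP animals, 40.4, 19.1 and 18.8 TPM in MT, and 38.6, 52.2, 35.7 and 42.4 TPM in LT. All NP animals were below all pregnant animals, whereas MT replicate 1 lay inside the LT range and the other two MT animals below it. The mean was 10.1 ± 2.39 TPM in NP and rose to 26.1 ± 12.4 TPM in MT (SD, n = 3 each), by 1.22 on the log2 scale (95% interval 0.59 to 1.85, limma adjusted P = 0.0168). The call was lost without NP replicate 3 (adjusted P = 0.0543) and when only these 2 stages were fitted (adjusted P = 0.0639). In LT the mean was 42.2 ± 7.18 TPM (SD, n = 4), which on the log2 scale was 0.75 above MT (95% interval 0.16 to 1.34, limma adjusted P = 0.0581) that did not pass the threshold. It passed in 3 of 20 alternatives: without MT replicate 1 (log2 fold change 1.10, adjusted P = 0.00812), after median-ratio scaling of the TPM values (adjusted P = 0.0314) and with DESeq2 on the counts (adjusted P = 0.0187). From NP to LT the level rose 4.18-fold, with a log2 fold change of 1.97 (95% interval 1.38 to 2.56, limma adjusted P = 0.000381), and this was called in 20 of 20 alternatives.

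BTC (ENSCPOG00000026188), which encodes betacellulin, was low in every stage but followed the same order of stage means. It had 0.0871, 1.19 and 0.847 TPM in NP, 4.90, 2.55 and 3.04 TPM in MT, and 3.69, 6.18, 3.50 and 3.54 TPM in LT. No NP animal reached the lowest pregnant animal, and MT and LT overlapped. These values rest on few reads, from 1 read in NP replicate 1 to 79 in LT replicate 2. In MT relative to NP the log2 fold change was 1.42 (95% interval 0.73 to 2.11, limma adjusted P = 0.0131) and 1.64 from NP to LT (95% interval 1.00 to 2.29, limma adjusted P = 0.00136). From MT to LT it was 0.22 (95% interval -0.43 to 0.87, limma adjusted P = 0.59), and leaving out any 1 animal ended neither of the other 2 calls. The NP to MT call was lost when only these 2 stages were fitted (adjusted P = 0.0507). Against the threshold of 3 TPM that the study uses to call a gene expressed, BTC was below in 3 of 3 NP animals and above in 2 of 3 MT and 4 of 4 LT animals.

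HBEGF (ENSCPOG00000010345), which encodes the heparin-binding member of the family, had 17.4, 9.35 and 5.05 TPM in NP, 5.75, 3.76 and 7.45 TPM in MT, and 3.40, 6.71, 6 and 8.29 TPM in LT. The stages overlapped, and NP replicate 1 was 2.41 times the mean of the other two NP animals. In MT relative to NP the log2 fold change was -0.69 (95% interval -1.59 to 0.20, limma adjusted P = 0.249), 0.08 from MT to LT (95% interval -0.76 to 0.92, limma adjusted P = 0.893) and -0.61 from NP to LT (95% interval -1.45 to 0.23, limma adjusted P = 0.197). Without NP replicate 1 the differences of MT and LT from NP were -0.29 and -0.21 (adjusted P = 0.559 and 0.621), and without NP replicate 3 that of LT passed the threshold, at -1.01 (adjusted P = 0.0447). The sign from MT to LT turned without MT replicate 2 (-0.14) and without LT replicate 4 (-0.06).

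EREG (ENSCPOG00000000683), which encodes epiregulin, varied most between the NP animals, at 11.8, 2.72 and 0.526 TPM. It had 0.975, 1.69 and 3.73 TPM in MT and 1.33, 1.79, 1.01 and 2.01 TPM in LT, with 5 to 136 reads per animal. The stages overlapped, and NP replicate 1 had 7.26 times the mean of the other two NP animals. In MT relative to NP the log2 fold change was -0.51 (95% interval -1.93 to 0.91, limma adjusted P = 0.602), -0.23 from MT to LT (95% interval -1.56 to 1.10, adjusted P = 0.802) and -0.74 from NP to LT (95% interval -2.07 to 0.59, adjusted P = 0.321). Without NP replicate 1 the first and the last of these turned sign, to 0.30 and 0.07. Without MT replicate 3 the MT to LT difference became 0.12, and without NP replicate 3 the NP to LT difference passed the threshold at -1.46 (adjusted P = 0.0392).

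EGF (ENSCPOG00000000779), the founding ligand, was low but detected in all 10 animals. It had 0.304, 0.299 and 0.370 TPM in NP, 0.788, 0.373 and 0.262 TPM in MT, and 0.363, 0.448, 0.391 and 0.376 TPM in LT, from 18 to 46 reads per animal. The stages overlapped and no animal reached 1 TPM. Fitted without the filter on low levels, in MT relative to NP the log2 fold change was 0.14 (95% interval -0.12 to 0.39, adjusted P = 0.438) and -0.06 from MT to LT (95% interval -0.30 to 0.17, adjusted P = 0.73).

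The make-up of the ligand mRNA changed along with these levels. In NP, TGFA made up 26.4, 47.4 and 52.5% of the summed ligand TPM (mean 42.1% ± 13.8, SD, n = 3) and HBEGF 43.3, 36.3 and 35.3% (mean 38.3% ± 4.35), so that HBEGF had the larger part in NP replicate 1 and TGFA in the other two. In LT, TGFA made up 77.6% ± 2.77 and HBEGF 11.2% ± 3.28 (SD, n = 4), and the ranges of NP and LT did not overlap for either. BTC made up 9.23% ± 0.0915 of the sum in MT (SD, n = 3), a share that rests on 40, 21 and 34 reads and is less precise than this SD. The summed ligand TPM was 40.1, 25.8 and 14.3 in NP, 52.8, 27.4 and 33.3 in MT, and 47.3, 67.3, 46.6 and 56.7 in LT. NP and MT overlapped, and all 4 LT animals lay above all NP animals. These sums are descriptions and were not tested.

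**Figure D2:**
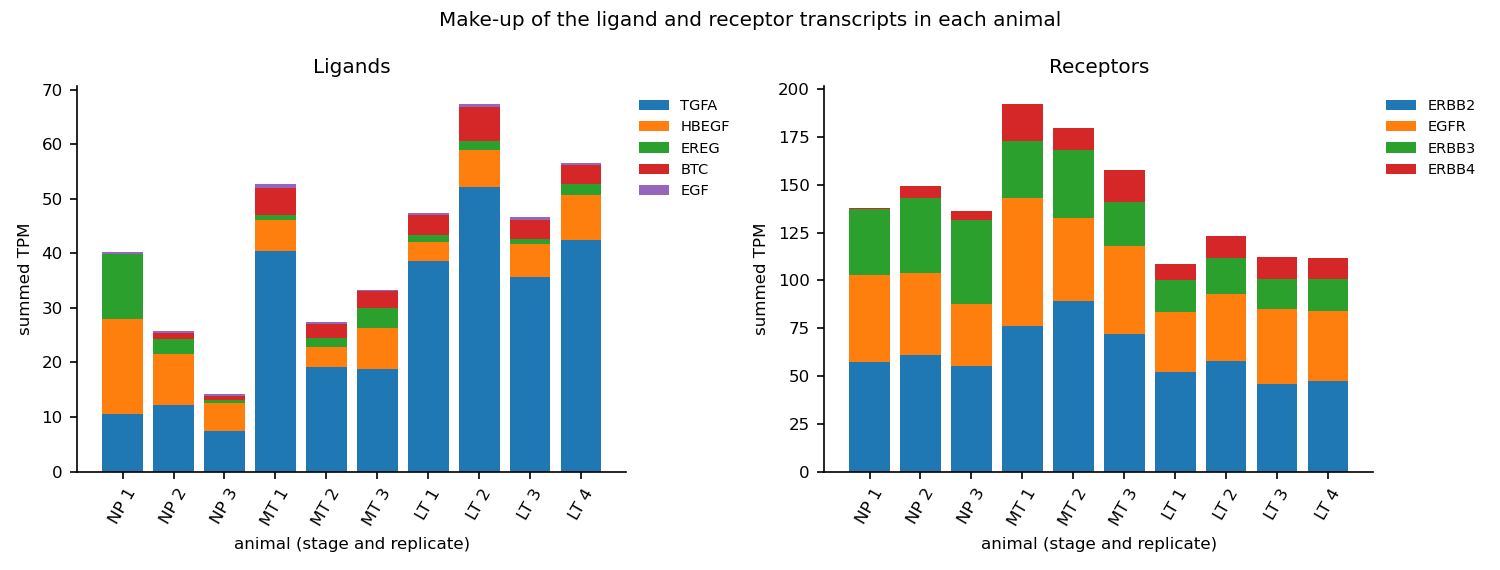
Summed TPM of the 5 ligands (left) and the 4 receptors (right) in each of the 10 animals, with 1 colour per gene. TGFA fills 74.9 to 81.5% of the ligand bar in LT and 26.4 to 52.5% in NP, and the receptor bars of MT (158 to 192 TPM) stand above those of LT (109 to 123 TPM).

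EGFR (ENSCPOG00000000040), the receptor of EGF and TGFA, had 45.2, 42.6 and 32.5 TPM in NP, 66.7, 43.5 and 45.9 TPM in MT, and 31.6, 34.7, 39.2 and 36.2 TPM in LT. The LT animals lay below all MT animals and inside the NP range apart from LT replicate 1, which was the lowest of all. In MT relative to NP the log2 fold change was 0.35 (95% interval -0.04 to 0.74, limma adjusted P = 0.181) and -0.52 from MT to LT (95% interval -0.89 to -0.16, limma adjusted P = 0.039). This call from MT to LT is not firm: it held in 7 of 20 alternatives, and the adjusted P was 0.178 after median-ratio scaling, 0.161 with edgeR on the counts and 0.122 without MT replicate 1. It was also lost without NP replicate 2, MT replicate 3 or any 1 LT animal, with adjusted P from 0.0511 to 0.08. From NP to LT the log2 fold change was -0.17 (95% interval -0.53 to 0.20, limma adjusted P = 0.415), with the opposite sign after scaling (0.13).

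ERBB2 (ENSCPOG00000005777), the receptor without a ligand of its own, was the most abundant member in each stage. It had 57.5, 61.1 and 55.4 TPM in NP, 76.4, 89.4 and 72.2 TPM in MT, and 51.9, 58.0, 45.7 and 47.6 TPM in LT. The 3 MT animals were above all 7 others, and NP and LT overlapped. In MT relative to NP the log2 fold change was 0.44 (95% interval 0.19 to 0.69, limma adjusted P = 0.0245) and -0.63 from MT to LT (95% interval -0.87 to -0.40, limma adjusted P = 0.00382). The rise to MT was lost without NP replicate 3 (adjusted P = 0.0709), without MT replicate 2 (adjusted P = 0.0798) and when only these 2 stages were fitted (adjusted P = 0.0605). The fall to LT held without any 1 animal, but it was -0.30 and not called (adjusted P = 0.0591) once the trend on gene length was removed. From NP to LT the difference was -0.19 (95% interval -0.43 to 0.04, limma adjusted P = 0.151) and turned to 0.11 after median-ratio scaling.

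ERBB3 (ENSCPOG00000014852), a receptor of the neuregulins, went down through the stages. It had 34.7, 39.3 and 43.8 TPM in NP, 30.1, 35.2 and 23.1 TPM in MT, and 16.5, 19.2, 15.7 and 16.9 TPM in LT. All LT animals were below all others, and only MT replicate 2 reached the NP range. The mean fell from 39.3 ± 4.54 TPM (SD, n = 3) in NP to 17 ± 1.51 TPM (SD, n = 4) in LT, by 1.15 on the log2 scale (95% interval of the difference -1.48 to -0.83, limma adjusted P = 0.00029), and this was called in 20 of 20 alternatives, at -0.63 with the length trend removed. The difference from MT to LT alone was -0.74 (95% interval -1.06 to -0.42, limma adjusted P = 0.00662), or -0.39 with the length trend removed (adjusted P = 0.0627). The difference from NP to MT was -0.42 (95% interval -0.76 to -0.07, limma adjusted P = 0.0863), and it passed the threshold without NP replicate 1 (adjusted P = 0.0452) and without MT replicate 2 (adjusted P = 0.0469).

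ERBB4 (ENSCPOG00000011232), which binds both neuregulins and several EGFR ligands, had the lowest mean of the 4 receptors in each stage. It had 0.692, 6.46 and 4.46 TPM in NP, 19.0, 11.8 and 16.6 TPM in MT, and 8.68, 11.2, 11.7 and 11.1 TPM in LT. All NP animals were below all pregnant animals, and each LT animal was below each MT animal. In MT relative to NP the log2 fold change was 2.01 (95% interval 1.01 to 3.01, limma adjusted P = 0.0144) and 1.50 from NP to LT (95% interval 0.57 to 2.44, limma adjusted P = 0.0136). NP replicate 1, with 37 reads, had 0.127 times the mean of the other two NP animals, and without it the rise to MT was 1.37 (adjusted P = 0.00363) and that to LT 0.86. Without MT replicate 3 the rise to MT missed the threshold (adjusted P = 0.0543), as it did when only these 2 stages were fitted (adjusted P = 0.0639). From MT to LT the difference was -0.51 (95% interval -1.44 to 0.43, limma adjusted P = 0.382), and it passed the threshold without NP replicate 1 (-0.51, adjusted P = 0.0497) and when only these 2 stages were fitted (adjusted P = 0.0494).

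Within the receptors, ERBB3 made up 27.9% ± 3.77 of the summed receptor TPM in NP (SD, n = 3), 16.6% ± 2.6 in MT (SD, n = 3) and 15% ± 0.693 in LT (SD, n = 4). ERBB4 went the other way, from 2.7% ± 1.98 in NP to 8.98% ± 2.12 in MT and 9.36% ± 1.07 in LT. For both, the NP animals did not overlap with the pregnant ones. The ratio of TGFA to EGFR mRNA was 0.234, 0.287 and 0.231 in NP, 0.606, 0.439 and 0.409 in MT, and 1.22, 1.50, 0.911 and 1.17 in LT, with no overlap between any stages. In LT the mRNA of this ligand was about as abundant as that of its receptor. TGFA is in the shortest and EGFR in the longest of 5 length groups of genes. The medians of these groups differed from MT to LT (-0.058 and -0.318), and the ratio was not corrected for this.

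**Figure D3:**
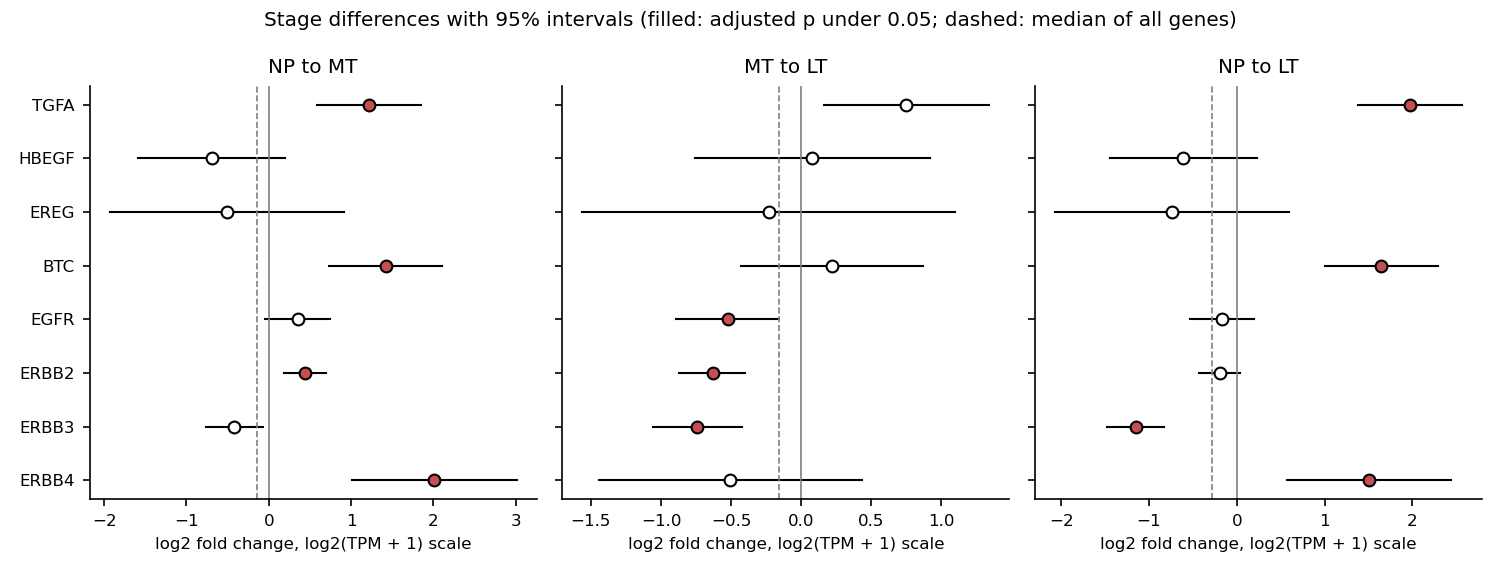
Log2 fold change on the log2(TPM + 1) scale of the 8 tested members in each comparison, with 95% intervals. Filled points have a limma adjusted P under 0.05 and the dashed line is the median of all genes (-0.14, -0.16 and -0.28). Filled points lie right of 0 for 4 members from NP to MT and left of 0 for 3 receptors from MT to LT.

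The order of mean levels was ERBB2, EGFR, ERBB3, HBEGF, TGFA, EREG, ERBB4, BTC and EGF in NP. Without NP replicate 1, ERBB3 (41.5 TPM) stood before EGFR (37.6 TPM), TGFA (9.86 TPM) before HBEGF (7.2 TPM) and ERBB4 (5.46 TPM) before EREG (1.62 TPM). In LT the order was ERBB2, TGFA, EGFR, ERBB3, ERBB4, HBEGF, BTC, EREG and EGF. Neighbours whose animals overlapped were EGFR with ERBB3, and each pair from HBEGF down to EGF, in NP. In LT they were ERBB2 with TGFA, TGFA with EGFR, and HBEGF with BTC. In MT, EGFR and ERBB3 did not overlap, ERBB3 (29.4 TPM) overlapped with TGFA (26.1 TPM) and TGFA with ERBB4 (15.8 TPM), and so did HBEGF with BTC and BTC with EREG. Some of these neighbours kept their order within each animal. ERBB2 was above TGFA in 4 of 4 LT animals and ERBB4 above BTC in 3 of 3 NP animals. TGFA was above ERBB4 and HBEGF above BTC in 3 of 3 MT animals. The other overlapping neighbours changed order between animals.

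The calls from MT to LT for the receptors depend on how gene length is treated. When the tested genes were split by length into 5 groups of equal size, the median difference from MT to LT was -0.318 on the log2 scale in the longest group and -0.058 in the shortest, and from NP to LT these medians were -0.499 and -0.129. EGFR, ERBB2 and ERBB3 belong to the longest group and ERBB4 to the next one, whereas the 4 tested ligands belong to the shortest. After removing the trend on length from each library, an alternative chosen with the values known, the MT to LT difference was -0.30 for ERBB2 (adjusted P = 0.0591), -0.39 for ERBB3 (adjusted P = 0.0627) and -0.19 for EGFR (adjusted P = 0.46). No member was then called by limma from MT to LT, while 3 of 8 had an unadjusted P under 0.05, and 23% of all genes were called. The fits with edgeR and DESeq2 on the counts, which called ERBB2 and ERBB3 (DESeq2 also TGFA), had no correction for length, and no count-based fit with one was run. The fall of ERBB3 and the rises of TGFA, BTC and ERBB4 from NP to LT were called with the trend removed too, and ERBB2 was then higher in LT than in NP (log2 fold change 0.32, adjusted P = 0.027). The part of length in the differences between stages was not tested further.

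Each member was also compared across all 3 stages by permuting the F statistic of the square-root transformed TPM over all 4200 assignments of the 10 animals, a single exact test per gene that is not adjusted. The exact P was 0.000476 for ERBB4, 0.00143 for ERBB3, 0.00238 for both TGFA and ERBB2, 0.00857 for BTC and 0.0414 for EGFR. It was 0.284 for HBEGF, 0.598 for EREG and 0.625 for EGF. In pairs, the exact two-sided permutation test cannot give a P below 0.1 for 3 animals against 3 or below 0.0286 for 3 against 4. This smallest value of 0.0286 was reached from MT to LT by all 4 receptors, whose animals did not overlap, and by no ligand. Over all tested genes 45.5% did not overlap in that comparison, 34.9% with LT as the lower stage.

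Levels of epithelial markers moved with some of the members. Of 13 genes listed as glandular epithelial markers 9 had a row, and their summed level was 468 to 583 TPM in NP, between 2639 and 4930 TPM in MT, and between 7132 and 8814 TPM in LT. None of the 9 was at 0 in all animals, and CLCA1 among them is a gene that the study itself picked from these libraries. AGR2, a protein-folding enzyme of secretory cells, gave most of this sum in LT, with 5547 to 7559 TPM. Without AGR2, a sum chosen with the values known, the other 8 markers gave 328 to 461 TPM in NP, between 1389 and 2226 TPM in MT, and between 1255 and 1682 TPM in LT, with NP below all pregnant animals and overlap between MT and LT. The keratin KRT7 gave most of this sum in NP, with 442 of 461, 241 of 364 and 202 of 328 TPM in replicates 1 to 3. TGFA, BTC and ERBB4 were lowest in NP, as was this sum. ERBB4 had its highest mean in MT, as had the sum without AGR2, of which MUC5B is a part. Of the single markers, MUC5B, FOXA2, KRT7 and TFF3 had their highest mean in MT. AGR2, SPDEF, CLCA1 and MUC5AC had theirs in LT, and FOXA1 in NP. MUC5B, a gel-forming mucin of glands, had 9.86, 102 and 115 TPM in NP, 861, 391 and 937 TPM in MT and 407, 378, 281 and 294 TPM in LT. It was lowest in NP replicate 1 and MT replicate 2 within these stages, as was ERBB4, whereas in LT it was highest in replicate 1, where ERBB4 was lowest. AGR2, SPDEF, MUC5AC and CLCA1 were also lowest in NP replicate 1 and MT replicate 2 within these stages. In NP replicates 1 to 3, SPDEF had 0.0871, 2.5 and 0.635 TPM and CLCA1 0.3, 2.91 and 1.55 TPM. The remaining markers of the list were not lowest in both of these animals. KRT7 had 442, 241 and 202 TPM and FOXA1 9.40, 2.68 and 0.610 TPM in NP replicates 1 to 3. FOXA2 and TFF3 were lowest in NP replicate 1, but FOXA2 was highest in MT replicate 2, at 45.3 TPM, and TFF3 was lowest in MT replicate 1. The summed level of 11 genes listed as pan-epithelial markers lay between 1158 and 1495 TPM in all 10 animals, with members called in both directions. This sum hides opposite shifts of single genes. In NP replicates 1 to 3, CLDN3 had 1.83, 70.3 and 56.7 TPM and PROM1 6.28, 107 and 153 TPM. In the same animals ELF3 had 251, 142 and 160 TPM and CLDN4 212, 131 and 118 TPM. Between NP and LT, 3 of the 11 genes were called higher and 1 lower, or 5 and 0 after median-ratio scaling. EPCAM, an adhesion protein of epithelia, rose by 0.42 (adjusted P = 0.00249), and ELF3, an epithelial transcription factor, had -0.77 (adjusted P = 0.00963), or -0.47 after scaling (adjusted P = 0.133). The part of cell types in the differences between stages was not tested.

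HBEGF and EREG had the same order among the NP animals as genes of the cornified squamous layer. IVL, the envelope protein involucrin, had 118, 30.9 and 10.6 TPM in NP replicates 1 to 3 and SPRR3 35.1, 8.83 and 2.14 TPM. In the 7 pregnant animals IVL lay between 0.185 and 3.20 TPM, and SPRR3 was listed at 0 in 6 of them. Of 14 squamous markers 8 had a row, with a summed level of 1153 to 3559 TPM in NP, between 262 and 1624 TPM in MT, and between 1744 and 3480 TPM in LT. The basal keratin KRT14 gave most of this sum in LT, when HBEGF was at most 8.29 TPM and EREG at most 2.01 TPM. The order among the NP animals was not particular to squamous genes, since the summed smooth muscle markers (23074, 9573 and 8157 TPM) and stromal fibroblast markers (12100, 7524 and 6989 TPM) had it too. In MT the squamous sum was 1624, 262 and 548 TPM, highest in the animal with the lowest EREG. The part of squamous cells in the HBEGF and EREG values was not tested.

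**Figure D4:**
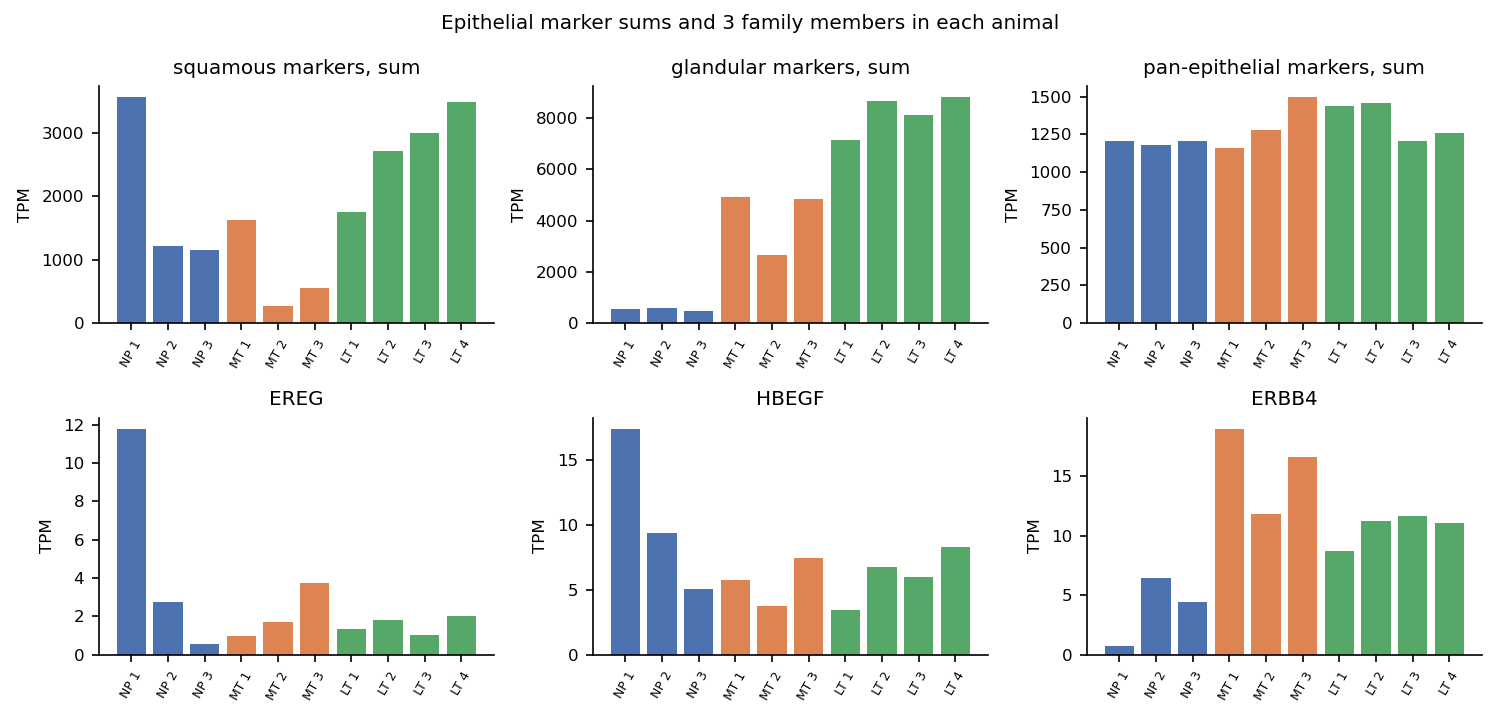
Summed TPM of squamous, glandular and pan-epithelial markers (top) and the TPM of EREG, HBEGF and ERBB4 (bottom) in each of the 10 animals. NP replicate 1 has the highest squamous sum (3559 TPM), EREG (11.8 TPM) and HBEGF (17.4 TPM) and the lowest ERBB4 (0.692 TPM).

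The genes whose pattern over the 10 animals was most like that of 3 members were found by Pearson's r on log2(TPM + 1), which is a description over animals of 3 stages. For TGFA, the most abundant ligand of the tested members in MT and LT and over all animals, they were CNNM4 (r = 0.977), CALCOCO2 (r = 0.966) and NXPE1 (r = 0.966). For ERBB2 they were USE1 (r = 0.958), KIF13B (r = 0.954) and MAP2 (r = 0.952). For ERBB4, taken because its stage means had the largest range on log2(TPM + 1), they were MYO5C (r = 0.98), MUC5B (r = 0.975) and ETNK2 (r = 0.973). That rank of ERBB4 was not firm. BTC had a larger range with a pseudocount of 0.1 and with edgeR (2.94 against 2.22). TGFA had a larger one after median-ratio scaling (2.25 against 2.11), on square-root TPM (3.32 against 2.13) and without NP replicate 1 (2.01 against 1.37). MYO5C, a myosin of secretory epithelia, had 6.62 ± 4.62 TPM in NP (SD, n = 3), 30.5 ± 10 TPM in MT (SD, n = 3) and 22.3 ± 2.69 TPM in LT (SD, n = 4). CALCOCO2, an autophagy receptor, had 134 ± 6.83, 183 ± 13.3 and 210 ± 17 TPM in these stages.

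Further ligands of the ERBB receptors were low in this tissue. EPGN, which encodes epigen, had 2.22, 0.263 and 0.351 TPM in NP, 2.58, 0.940 and 1.38 TPM in MT and 3.52, 4.07, 4.91 and 3.45 TPM in LT. All LT animals were above all others, with a log2 fold change from NP to LT of 1.49 (limma adjusted P = 0.00485) and from MT to LT of 0.96 (adjusted P = 0.0575). The latter passed the threshold after median-ratio scaling (1.09, adjusted P = 0.0415). It did not pass by edgeR (adjusted P = 0.109) or with the length trend removed (adjusted P = 0.0789). In the RefSeq annotation of another guinea pig assembly (mCavPor4.1), Btc, Areg, Ereg and Epgn stand within 6 entries in a row, with 2 non-coding genes between them. Of these neighbours, BTC and EPGN were higher in LT than in NP and EREG was not called in any comparison.

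The neuregulins are the ligands of ERBB3 and ERBB4 outside the members. NRG2 had 5.73, 7.87 and 7.16 TPM in NP, 7.11, 8.31 and 7.54 TPM in MT and 4.90, 4.44, 3.04 and 2.60 TPM in LT, and fell by 0.89 on the log2 scale from MT to LT (limma adjusted P = 0.00927, called in 20 of 20 alternatives). NRG4 had 3.85, 4.53 and 7.90 TPM in NP, 2.99, 4.99 and 4.22 TPM in MT and 2.55, 0.953, 1.90 and 0.385 TPM in LT. It fell by 1.12 from MT to LT (adjusted P = 0.0336), a call that was lost in 7 of 20 alternatives, among them edgeR (adjusted P = 0.0813) and the fits without MT replicate 2, MT replicate 3, LT replicate 2 or LT replicate 4. NRG1 lay between 0.719 and 1.95 TPM in all animals, and in MT relative to NP the log2 fold change was -0.38 (adjusted P = 0.217) and 0.35 from MT to LT (adjusted P = 0.198). The latter was 0.82 by edgeR (adjusted P = 0.0436) and 0.57 with the length trend removed (adjusted P = 0.0412), both past the threshold. NRG3 had 0 reads in all 10 animals.

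Ligands are released by metalloproteases of the ADAM family, of which ADAM10 and ADAM17 are the main ones, and the inactive rhomboids RHBDF1 and RHBDF2 take part in the maturation of ADAM17. Of 11 genes of shedding and processing tested, 4 were called from NP to MT, 1 as higher and 3 as lower, where 18% of all genes were called, with a list median of -0.15 beside -0.14 for all genes. ADAM10 had 73.2 to 78.2 TPM in NP and 50.6 to 59.2 TPM in MT and fell by 0.47 (limma adjusted P = 0.00453). RHBDF2 fell by 0.75 (adjusted P = 0.00638), with 30 ± 3.75 TPM in NP and 17.4 ± 2.69 TPM in MT (SD, n = 3 each). ADAM9 rose by 0.52 (adjusted P = 0.0126), and these 3 calls held in 20 of 20 alternatives. ADAM17 (30.6 TPM in NP and 27.5 TPM in MT, limma adjusted P = 0.279) and RHBDF1 (36.1 and 35.5 TPM, adjusted P = 0.854) were not called from NP to MT.

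ADAM12, a protease known to shed HBEGF, fell by 1.11 from NP to MT (limma adjusted P = 0.0216) and rose by 1.05 from MT to LT (adjusted P = 0.0155). It had 4.83, 5.84 and 9.67 TPM in NP, 2.07, 2.57 and 2.88 TPM in MT and 5.02, 4.57, 9.10 and 7.10 TPM in LT, with the MT animals below all others. The fall was called in 15 of 20 alternatives and lost without NP replicate 3, without any 1 MT animal and when only NP and MT were fitted, at adjusted P of at most 0.0651. From MT to LT 3 of the 11 genes were called, 1 as higher and 2 as lower, close to the 28.3% of all genes. ADAM19, a protease of neuregulin processing, went from 27.5 ± 5.1 TPM to 10.6 ± 3.7 TPM, a log2 fold change of -1.32 (adjusted P = 0.00421). TIMP3, the inhibitor of ADAM proteases, went from 330 ± 62.9 TPM (SD, n = 3) to 168 ± 19.1 TPM (SD, n = 4) and fell by 0.96 on the log2 scale (adjusted P = 0.0033). ADAM19 and TIMP3 were called in 20 of 20 alternatives.

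Of 25 adaptors and signal transducers tested, 5 were called from NP to MT, all lower, and 8 from MT to LT, 2 of them higher and 6 lower, close to the 18% and 28.3% of all genes called. The list medians were -0.17 and -0.11, beside -0.14 and -0.16 for all genes. After median-ratio scaling the counts were 1 higher and 2 lower from NP to MT, and 8 higher and 4 lower from MT to LT, so the balance of directions depends on the scaling. The falls that held in 20 of 20 alternatives from MT to LT were those of PIK3R1, the regulatory subunit of PI3 kinase (-0.98, limma adjusted P = 0.00483), PLCG1, phospholipase C gamma (-0.88, adjusted P = 0.00478), and GAB1, a docking protein of the receptors (-0.74, adjusted P = 0.00185). PIK3R1 had 121 to 153 TPM in MT and 61.9 to 71.8 TPM in LT. SHC1, an adaptor that links receptors to RAS, rose by 0.55 from MT to LT (adjusted P = 0.017), from 94.4 ± 2.84 TPM to 139 ± 13.4 TPM, and the call was lost without MT replicate 3 (adjusted P = 0.0501) and with the replicate number as a block (adjusted P = 0.0779).

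From NP to MT, AKT2, a kinase downstream of PI3 kinase, fell by 0.36 (limma adjusted P = 0.0112) and was called in 19 of 20 alternatives, the exception being the fit of only these 2 stages (adjusted P = 0.0644). SOS1, which loads RAS with GTP, had a log2 fold change of -0.48 (adjusted P = 0.0249). SHC1 had -0.50 (adjusted P = 0.0423) and STAT3, a transcription factor of cytokine and growth factor receptors, -0.38 (adjusted P = 0.0427). These last 3 calls are not firm, since they held in 13, 4 and 7 of 20 alternatives, with adjusted P up to 0.0945, 0.249 and 0.197. They were lost in 5, 8 and 8 of the 10 fits that leave out 1 animal.

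Of 19 negative regulators tested, genes that restrain the receptors and the MAP kinase cascade, 13 were called from MT to LT, all lower, beside 21.8% of all genes called lower, and the list median was -0.53 beside -0.16. After median-ratio scaling 9 were called lower and none higher, where 14.8% of all genes were lower. With the length trend removed 6 were called lower and 1 higher, LRIG1 (0.49, adjusted P = 0.0264), where 11.4% of all genes were lower. In the fit reported, LRIG1 (0.20, limma adjusted P = 0.225), DUSP6 (0.18, adjusted P = 0.26) and DUSP5 (0.06, adjusted P = 0.943) had positive differences and were not called. Endothelial markers were also mostly lower in LT than in MT, with 7 of 8 called lower and a median of -0.84. Their part in the values of the negative regulators was not tested. The 4 with the largest changes were DUSP4, a phosphatase of MAP kinases (-1.68, limma adjusted P = 0.0166), SPRY2, a sprouty inhibitor of RAS signaling (-1.11, adjusted P = 0.0048), SOCS5, a suppressor of EGFR signaling (-0.89, adjusted P = 0.012), and LRIG2, a member of a family of ERBB-binding membrane proteins (-0.88, adjusted P = 0.00185). SPRY2 had 34.7, 52.1 and 36.6 TPM in MT and 20.9, 17.8, 18.6 and 16.0 TPM in LT. LRIG2 had 13.3 to 13.6 TPM in MT and 6.74 to 7.03 TPM in LT, and both were called in 20 of 20 alternatives. The call of SOCS5 was lost without MT replicate 2 and that of DUSP4 without MT replicate 2 or 3, and both were lost with the replicate number as a block, with adjusted P of at most 0.0538 and 0.0726 over all alternatives.

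From NP to MT, 4 of the 19 negative regulators were called, all lower, with a list median of -0.15, close to the 18% called and the median of -0.14 over all genes. DUSP5, a nuclear phosphatase of ERK, had 54.5, 19.8 and 11.3 TPM in NP, 4.56, 3.25 and 3.98 TPM in MT and 4.20, 6.90, 1.85 and 4.77 TPM in LT. All NP animals were above all others, and its log2 fold change of -2.31 to MT (limma adjusted P = 0.0133) was called in 20 of 20 alternatives and was -1.71 without NP replicate 1. DUSP4 had 29.6, 16.4 and 15.1 TPM in NP and 3.47, 8.77 and 7.03 TPM in MT, a log2 fold change of -1.54 (adjusted P = 0.0399). This call held in 7 of 20 alternatives and was lost without any 1 NP animal, MT replicate 1, MT replicate 3 or LT replicate 2, with adjusted P up to 0.128. LRIG3 (-0.67, adjusted P = 0.0246) and RASA1, a GTPase activator of RAS (-0.34, adjusted P = 0.029), held in 14 and 9 of 20, and were lost in 4 and 5 of the 10 fits that leave out 1 animal.

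Of 15 genes that respond to growth factor signals, 3 were called from NP to MT, all lower, beside 18% of all genes, and 4 from MT to LT, 3 higher and 1 lower, beside 28.3% of all genes. Both counts are near these shares, and after median-ratio scaling 2 were called lower from NP to MT and 4 higher from MT to LT. The list medians were -0.40 and 0.29, beside -0.14 and -0.16 for all genes. EGR1, an immediate early transcription factor, had 69.3, 87.3 and 88.1 TPM in NP, 28.7, 21.9 and 27.2 TPM in MT and 34.2, 71.4, 44.0 and 30.6 TPM in LT, with all MT animals below all others. It fell by 1.62 from NP to MT (limma adjusted P = 0.00403). JUNB, a subunit of the AP-1 factor, fell by 0.81 to MT (adjusted P = 0.00814) and rose by 0.95 to LT (adjusted P = 0.00325). FOS, another AP-1 subunit, had 60.3, 29.9 and 46.4 TPM in MT and 74.5, 158, 133 and 161 TPM in LT, all above MT, and rose by 1.51 (adjusted P = 0.0068). The calls of EGR1, JUNB and FOS held in 20 of 20 alternatives.

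The other 3 calls among the response genes were less firm. PLAUR, the urokinase receptor, had 99.1, 35.3 and 27.2 TPM in NP and 20.2, 10 and 18.5 TPM in MT, a log2 fold change of -1.50 (limma adjusted P = 0.0393). It was -0.95 without NP replicate 1, and the call held in 7 of 20 alternatives, with adjusted P up to 0.122 (without MT replicate 2). IER3, an early response gene, rose by 0.62 from MT to LT (adjusted P = 0.0457), a call that held in 11 of 20 alternatives. It was lost without 5 of the 10 animals, left out singly, with the highest adjusted P without MT replicate 2 (0.173). Square-root TPM, no filter, the replicate number as a block and removal of the length trend ended it too. MYC fell by 0.54 (adjusted P = 0.0169), a call lost without MT replicate 2 (adjusted P = 0.0718), after scaling (adjusted P = 0.087), by edgeR and DESeq2 and with the length trend removed, at adjusted P of at most 0.0917.

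**Figure D5:**
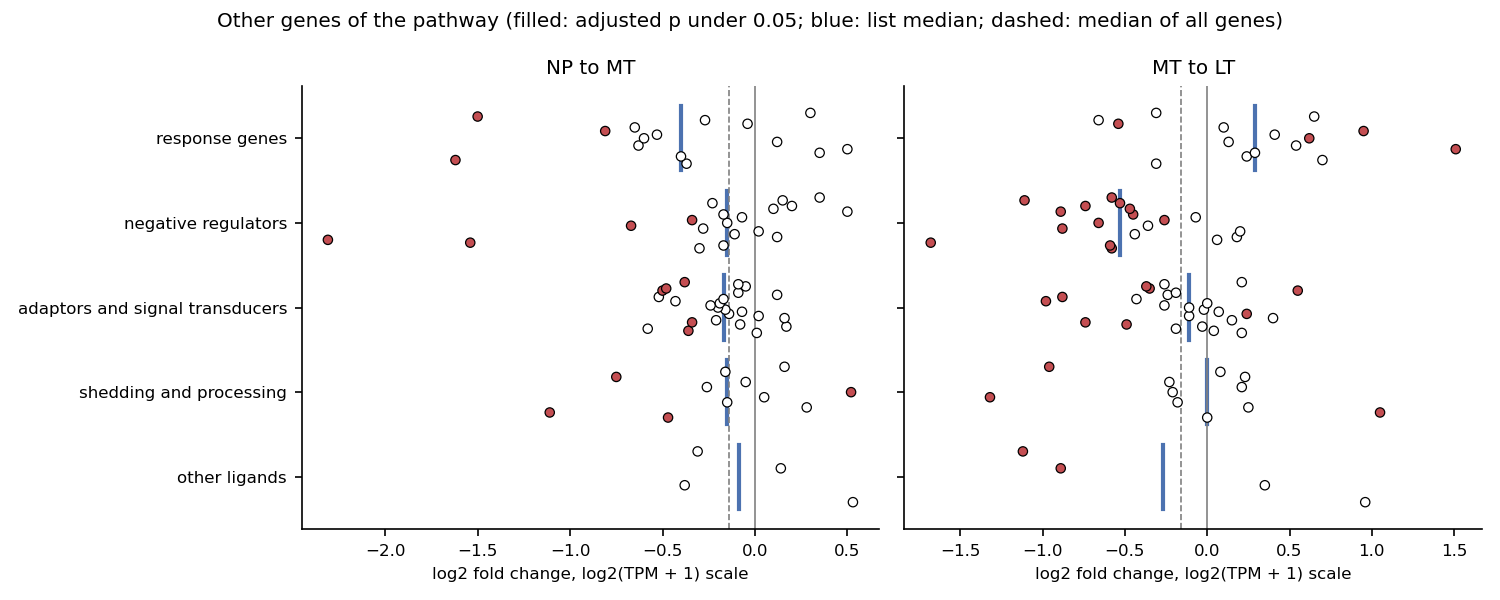
Log2 fold change on the log2(TPM + 1) scale of each tested gene of 5 pathway lists, from NP to MT (left) and from MT to LT (right). Filled points have a limma adjusted P under 0.05, blue bars are list medians and the dashed line is the median of all genes (-0.14 and -0.16). The negative regulators have a median of -0.53 from MT to LT, with 13 of 19 filled.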

How the data were processed

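The authors prepared strand-specific libraries from poly(A)-selected RNA, sequenced single 75-base reads, aligned them with TopHat2 to the guinea pig genome and counted them with HTSeq 0.5.4p1. The submitters' processing notes also name CASAVA 1.8.2. The deposited table holds, for each of 10 animals and 25028 Ensembl genes, the read count and the TPM value the authors derived from it. TPM values were used because the methods name them, with the counts for edgeR and DESeq2 as alternatives. Log2(TPM + 1) was tested with limma (trend, 1 fit over the 10 animals with stage as the term, two-sided, Benjamini-Hochberg over the 13421 genes whose mean reached 1 TPM). The methods of the study use square-root TPM, which served for the exact tests and as an alternative. Scripts were tested on simulated data. Replicates are separate animals, and none agreed within sampling noise. Replicate numbers do not pair animals across stages. The members and gene lists were chosen with earlier results of these data known. From each list, up to 4 called genes per comparison (NP to MT and MT to LT) with the largest change were named, all other ERBB ligands, and the 3 genes most correlated with the most abundant ligand, the most abundant receptor and the member with the largest range of stage means on the log2 scale used. Summed marker lists for stroma, endothelium and leukocytes were computed too. The packages were limma 3.58.1 and edgeR 4.0.16, with DESeq2 1.42.0, in R 4.3.3. Sequences and coordinates were not used here, apart from the order of genes in the RefSeq annotation of mCavPor4.1.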

Additional observations from a re-analysis of the deposited data

Results flagged for a closer look

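BTC in LT replicate 2 was 6.18 TPM, while the other LT animals had 3.50, 3.54 and 3.69 TPM. Its gap to the nearest animal was 0.931 of the whole range of the stage, above the Dixon critical value for 4 animals. The 9 genes were each examined in LT, and chance marks about 1 in 20 such groups. BTC in this animal rests on 79 reads. Without it the mean of LT was 3.58 TPM in place of 4.23 TPM. NP and MT, with 3 animals each, cannot be examined in this way.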

How the results depend on the processing

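From NP to MT, fitting only the stages compared gave 1125 genes and 0 members called by limma, with 5 of 8 members at an unadjusted P under 0.05. With edgeR and with DESeq2, each fitted to all 3 stages and not to 2, 4 members were called. Leaving out 1 animal gave 1138 to 4278 genes and 2 to 5 members (1138 genes without MT replicate 3, 1484 without NP replicate 2, 4278 without NP replicate 1, and 2 members without NP replicate 3). From MT to LT, leaving out 1 animal gave 1930 to 5492 genes (1930 without MT replicate 2, 2429 without LT replicate 3) and 2 to 4 members, and removing the length trend gave 0 members. From NP to LT it gave 5404 to 8007 genes and 4 to 6 members. Equal replicate numbers did not go with alike deviations (3 of 9 pairs with a correlation over 0.1, from -0.279 to 0.244, and 3 of 9 animals closest to their own number). With the replicate number as a block, 1622, 1707 and 5576 genes and 4, 2 and 4 members were called, EGFR being lost.

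Signs turned only for differences close to 0 or not called in the fit reported, apart from SOS1 and RASA1 from MT to LT, at 0.00 and 0.01 with the length trend removed. EREG turned to 0.30 (NP to MT) and 0.07 (NP to LT) without NP replicate 1 and to 0.12 (MT to LT) without MT replicate 3, the upper ends of ranges from -1.24, -1.46 and -0.51 over the animals left out. HBEGF from MT to LT turned to -0.06 with the block and without LT replicate 4, and to -0.14 without MT replicate 2. From NP to LT, EGFR was 0.13 and ERBB2 0.11 after median-ratio scaling, 0.11 and 0.10 with edgeR, 0.11 for both with DESeq2, and 0.34 and 0.32 with the length trend removed. The causes were not tested. Of the 240 values of members with another setting, 216 kept their direction and side of the threshold, as did 218 of 240 with 1 animal left out. Median-ratio scaling moved the split of higher and lower genes from 815 and 1595 to 1347 and 986 (NP to MT), from 877 and 2923 to 1818 and 1983 (MT to LT) and from 1446 and 5522 to 3233 and 3246 (NP to LT). Counts of 18 to 46 reads for EGF and 1 to 79 for BTC limit the precision of these genes.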

Other observations

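Lists of markers of further cell types were summed in the same way. Endothelial markers (8 of 10 with a row) summed to 177 to 240 TPM in NP, between 126 and 186 TPM in MT, and between 71.5 and 112 TPM in LT, with LT below all other animals. After median-ratio scaling 5 of these 8 genes were called lower from MT to LT. Leukocyte markers (11 of 13 with a row) summed to 235 to 554 TPM in NP, between 254 and 295 TPM in MT, and between 275 and 414 TPM in LT, and stromal fibroblast markers (8 of 12 with a row) to 6989 to 12100, 5931 to 10986 and 6847 to 10090 TPM, with overlap between all stages. Of the 8 stromal genes tested, 1 was called higher and 2 lower from MT to LT, beside 28.3% of all genes called. Smooth muscle markers (10 of 10 with a row) lay between 8157 and 23074 TPM in NP, 10856 and 16666 TPM in MT, and 14536 and 25447 TPM in LT, with overlap too.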
